A study of Mus musculus with 12 samples.

Results

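Livers that had received either of 2 knockdown viruses were compared jointly with livers that had received the control virus. The joint group held 8 samples, 4 with a short hairpin RNA (shRNA) against G0s2 and 4 with a hairpin against Rgs16, and the control group held 4 samples with a hairpin against lacZ, a bacterial gene that mice lack. These are 12 of the 12 samples of the series, and each knockdown group had equal weight in the joint contrast. All 3 groups were wild-type mice of strain C57BL/6J (given as C57BL/6 in another label field) aged 8 weeks, on a 12 h light and 12 h dark cycle. Every animal was given 0.1 OD of adenovirus through the tail vein, so the controls carried virus and a hairpin too. Livers were collected on day 12 at zeitgeber time 12, the hour at which the lights go off, and food had been absent for the preceding 6 h. The sources used here give neither the sex of the animals nor whether each sample was 1 animal, so the p-values speak only for the spread among these libraries, which may be technical. Total RNA of the frozen liver tissue was sequenced after ribosomal RNA depletion.

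The G0s2 protein blocks adipose triglyceride lipase, the first enzyme of triglyceride breakdown, and the Rgs16 protein ends signalling by heterotrimeric G proteins. Adult mouse hepatocytes rarely divide, and their RNA is dominated by secreted proteins, enzymes of nitrogen, lipid and xenobiotic metabolism and, in males, major urinary proteins (Mup) that carry pheromones. Many of these genes are transcribed in a sex-dependent way under the pulses of growth hormone, acting through its receptor and the transcription factor STAT5. Injured or regenerating liver is known for cell cycle entry, return of foetal transcripts, matrix deposition by stellate cells and more immune cells.

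Total counts ranged from 18458222 to 27170419 per sample. In shLacZ 10.5% ± 0.642 of the counts fell on Mup genes, against 1.15% ± 0.31 in shG0s2 and 2.27% ± 0.893 for shRgs16 (mean and SD, n = 4 each). Along the first principal component, with 57% of the variance, shLacZ samples lay between -67.12 and -54.91, shRgs16 between -12.99 and 17.63 and shG0s2 between 48.04 and 63.15. On the second, with 16.7%, all shRgs16 samples were negative and all others positive. The 22 hepatocyte markers were all present, with summed TPM (a level per transcript length with a fixed total) of between 71779 and 78299.9 in shLacZ, between 72962 and 92498 in shG0s2 and between 91384 and 97203 in shRgs16.

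Both targeted genes were lower under their own hairpin, and Rgs16 was lower under both. Rgs16 (ENSMUSG00000026475, chr1:153740349-153745468, plus strand, GRCm38) had 105, 212, 153 and 126 CPM in shLacZ, 71.3, 58.97, 43.9 and 62.2 in shG0s2 and 14.4, 19.7, 37.4 and 33.3 in shRgs16, where CPM is the library-relative count after trimmed mean of M values (TMM) scaling. All 8 hairpin samples lay below all 4 control samples, and the joint log2 fold change was -1.92 (SE 0.27, adjusted p 1.5e-04). The fall was larger under the hairpin aimed at Rgs16, with 2.51 (SE 0.34, adjusted p 2.0e-04) against 1.33 (SE 0.32, adjusted p 0.0048), and the difference between the hairpin groups was 1.18 (SE 0.33, adjusted p 0.017). G0s2 (ENSMUSG00000009633, chr1:193272161-193273217, minus strand) had 87.4, 74.2, 66.6 and 66.6 CPM in shLacZ, 49.3, 37.9, 24.6 and 36.99 in shG0s2 and 88.3, 57.8, 69.2 and 84.7 in shRgs16. It fell in shG0s2, by 0.99 (SE 0.20, adjusted p 0.0016), while its difference in shRgs16 was 0.025 (SE 0.20, adjusted p 0.93), and the hairpin groups differed by -1.01 (SE 0.20, adjusted p 0.0024). The joint value of -0.48 (SE 0.17, adjusted p 0.032) thus averages a fall and a value near 0. That joint call was lost without shLacZ replicate 1 (-0.39, adjusted p 0.102), shLacZ replicate 2 (-0.48, adjusted p 0.0651) or shRgs16 replicate 3 (-0.46, adjusted p 0.0544), and when libraries were scaled by their total alone (-0.080). Under that scaling G0s2 was at -0.48 (adjusted p 0.0498) in shG0s2 and 0.32 (adjusted p 0.19) in shRgs16. The hairpin groups then differed by -0.81 (adjusted p 0.0072). Its mean TPM was 115 in shLacZ, 95.9 in shG0s2 and 158 in shRgs16.

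**Figure D1:**
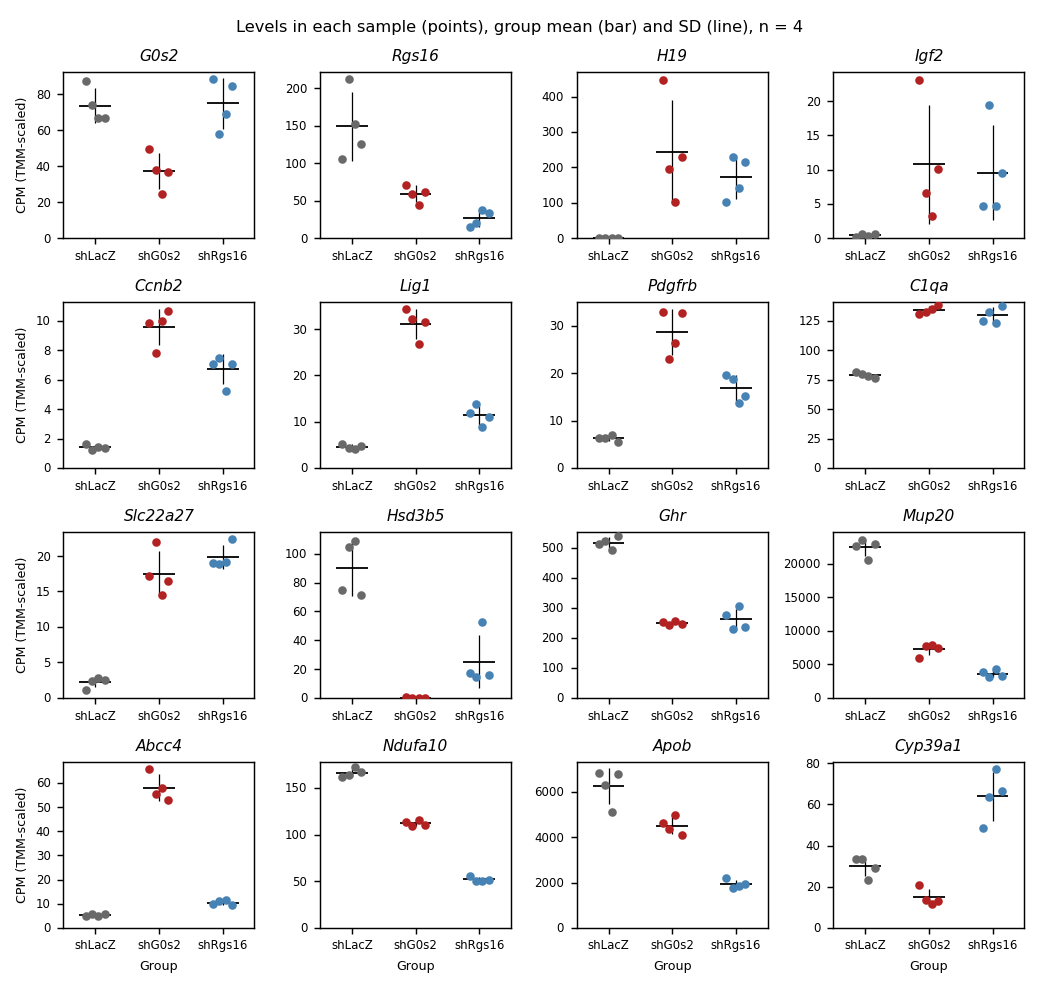
TMM-scaled CPM (vertical axes, each starting at 0) of 16 named genes in the 4 samples of each group, with points for samples, bars for group means and lines for the SD. Rgs16 fell in both hairpin groups and more in shRgs16, H19 and Slc22a27 rose to like levels in both, Lig1 and Abcc4 rose more in shG0s2, Ndufa10 and Apob fell more in shRgs16, and Cyp39a1 moved in opposite directions.

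Across the transcriptome, the joint contrast called 4812 genes higher and 4736 lower of 16018 tested, or 30.0% and 29.6% (quasi-likelihood F test of edgeR, false discovery rate 0.05). A change of at least 2-fold, a log2 value of 1, was reached by 1763 of the higher and 554 of the lower genes. In 2521 of the higher genes all 8 hairpin samples exceeded all 4 controls, and in 2435 of the lower genes all 8 were below them. Scaling by library size alone shifted the median log2 fold change over the whole table by 0.3988. It called 9972 genes higher and 1232 lower, so that 89% of calls were higher against 50.4%. Leaving the Mup genes out of the TMM factors gave 4788 and 4774. All changes below are therefore relative to the bulk of genes, and no external standard is named in the labels. The shares of 30.0% higher and 29.6% lower are the background for the joint list counts below. The lists were chosen with earlier results of these data known, so their counts are descriptions and no test.

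A gene was counted as moved alike where both hairpins, each against shLacZ in the same 12-sample model, passed the threshold in the same direction. Higher genes numbered 4991 (31.2%) in shG0s2 and 4077 (25.5%) in shRgs16, and lower genes 4807 (30.0%) and 3784 (23.6%). Moved alike were 3143 genes higher (19.6%) and 2745 lower (17.1%), 5888 in all. Both contrasts use the same 4 shLacZ samples, so this count is a description and carries no test of its own. Of these genes, 984 rose and 277 fell at least 2-fold in both groups. Another 284 genes passed in both groups in opposite directions. The joint contrast called all 5888 genes moved alike, 40 of the opposite ones and 82 that neither group reached alone. Genes called in shG0s2 but not in shRgs16 numbered 3626, of which 2448 also differed between the hairpin groups. For genes called in shRgs16 but not in shG0s2 those counts were 1689 and 1068.

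**Figure D2:**
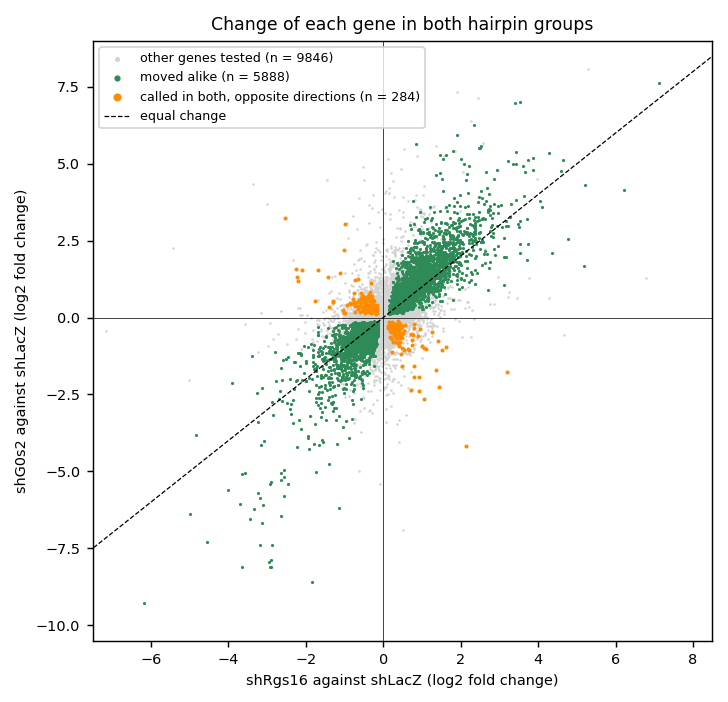
Log2 fold change against shLacZ in shRgs16 (horizontal) and shG0s2 (vertical) for the 16018 genes tested, 1 point per gene, both sharing the 4 shLacZ samples. The 5888 genes moved alike fill the upper right and lower left, with the strongest decreases below the line of equal change, and 284 genes lie in the other corners past the threshold in both groups.

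At the median gene the effect was larger in shG0s2. Over the 5888 genes moved alike, the ratio of the shG0s2 log2 fold change to the shRgs16 log2 fold change had a median of 1.257 (quartiles 0.9552 and 1.683), and it exceeded 1 for 72.03% of them. The median absolute log2 fold change was 0.7742 in shG0s2 and 0.6104 in shRgs16. The ratio was much the same for genes that rose (median 1.258) and genes that fell (1.256), and for genes changed at least 2-fold in both groups (1.258). Leaving out each sample in turn gave medians of 1.199 to 1.295. The direct contrast of the hairpin groups, which uses no control sample, called 3359 genes higher in shG0s2 (21.0%) and 3281 lower (20.5%). Among genes moved alike, 1948 (12.2% of the genes tested) had the larger change in shG0s2 and 404 (2.52%) in shRgs16 by that test, while 3536 did not pass it. An undetected difference does not show that the effects were equal.

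**Figure D3:**
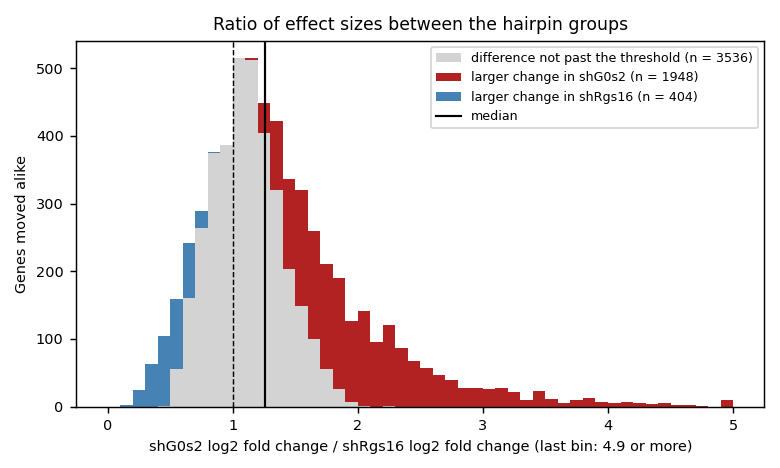
Number of genes (vertical axis) by ratio of effect sizes, shG0s2 over shRgs16 (horizontal axis, bins of 0.1, the last holding all ratios of 4.9 or more), for the 5888 genes moved alike. The solid line is the median, 1.257, and the dashed line a ratio of 1. Genes whose change was larger in shG0s2 by the direct test (1948) outnumber those larger in shRgs16 (404).

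The largest joint increases included foetal genes. H19 (ENSMUSG00000000031, chr7:142575529-142578143, minus strand), an imprinted long non-coding RNA abundant in foetal liver, had 0.931, 1.46, 1.06 and 1.46 CPM in shLacZ, 447, 197, 102 and 231 in shG0s2 and 102, 229, 142 and 214 in shRgs16. No hairpin sample was within reach of a control, the joint log2 fold change was 7.38 (SE 0.60, adjusted p 4.0e-06), and the hairpin groups did not differ detectably (0.51 (SE 0.41, adjusted p 0.36)). Igf2, the foetal growth factor gene beside H19, had 0.1396, 0.566, 0.309 and 0.565 CPM in shLacZ, 23.1, 6.53, 3.22 and 10.1 in shG0s2 and 4.68, 19.4, 4.62 and 9.43 in shRgs16. It rose by 4.67 (SE 0.90, adjusted p 0.0013), with hairpin samples that spread widely within each group. Gstm3, a glutathione transferase gene with close paralogs, rose by 4.41 (SE 0.33, adjusted p 1.4e-06), from 23.4 ± 7.84 CPM to 969.7 ± 218 under the G0s2 hairpin and 253 ± 87.4 under the Rgs16 hairpin (SD, n = 4 each). Gpnmb, a glycoprotein gene of lipid-laden macrophages, rose from 2.46 ± 1.13 to 68.8 ± 13.9 and 36.3 ± 9.57 CPM, and Bmp8b, a bone morphogenetic protein gene, from 0.198 ± 0.0819 to 8.22 ± 2.45 and 3.94 ± 0.982. Their ratios of effect sizes were 1.56, 1.24 and 1.25, each with a larger rise in shG0s2 by the direct test.

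The other large increases differed in which hairpin group was higher. Cacna1b (ENSMUSG00000004113, chr2:24603887-24763152, minus strand), which encodes the pore of a neuronal calcium channel, had 0.186, 0.189, 0.0442 and 0.0471 CPM in shLacZ, 3.25, 1.31, 1.21 and 2.76 in shG0s2 and 6.14, 13.2, 6.26 and 10.1 in shRgs16. Here shRgs16 was highest, with a ratio of 0.67 and a difference of -2.05 (SE 0.34, adjusted p 4.2e-04). Apela, the gene of a peptide ligand of the apelin receptor, went the other way, with 0, 0.189, 0.0442 and 0.0471 CPM in shLacZ, 5.86, 8.14, 3.43 and 5.53 in shG0s2 and 0.286, 0.8002, 0.196 and 0.199 in shRgs16. Its joint log2 fold change of 4.31 became 5.37 without shLacZ replicate 2. Lrtm2, a leucine-rich repeat membrane protein gene, had 2 counts over the 4 shLacZ samples, 392 over the shG0s2 samples and 34 over the shRgs16 samples. Scaled for depth, the ratio to shLacZ was 155 (95% interval 42.7 to 1290.0, Clopper-Pearson, counting error only) in shG0s2 and 13.9 (3.55 to 119) in shRgs16.

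The largest joint decreases outside the Mup family, 8 genes of varied function, were led by Moxd1 and Hsd3b5. Moxd1 (ENSMUSG00000020000, chr10:24223517-24302790, plus strand), which encodes a copper-dependent monooxygenase, had 259, 203, 73.9 and 267 CPM in shLacZ, 1.04, 0.131, 0.0347 and 0 in shG0s2 and 4.85, 0.691, 4.11 and 1.35 in shRgs16. It fell by 7.73 (SE 0.57, adjusted p 2.1e-06), or by 9 without shG0s2 replicate 1. Hsd3b5 (ENSMUSG00000038092, chr3:98618634-98630252, minus strand), a steroid-metabolising gene transcribed mainly in male liver, had 74.6, 105, 109 and 71.7, 0.335, 0.08703, 0.277 and 0.182 and 17.1, 14.5, 52.5 and 15.95 CPM in the same order. It was nearly absent in shG0s2 and partly kept in shRgs16, most in replicate 3. Its ratio was 4.64 and the hairpin groups differed by -6.74 (SE 0.72, adjusted p 5.8e-05), or by -6.09 without shRgs16 replicate 3. Slco1a1, which encodes an uptake carrier of bile acids and other organic anions, had 299, 299, 339.7 and 316 CPM in shLacZ, 3.21, 1.78, 8.39 and 3.42 in shG0s2 and 137, 80.6, 215 and 133 in shRgs16. Its ratio was 5.39, and its difference of -5.05 became -5.64 without shG0s2 replicate 3. Obp2a, an odorant-binding lipocalin gene, fell by 4.78 jointly (ratio 1.86), Ces4a, a carboxylesterase gene, by 4.61 (ratio 1.96). Slc22a28, an organic anion transporter family gene, fell by 3.37 (ratio 2.898). Kcnk1, a potassium channel gene, fell by 4.36, and its difference between the hairpin groups did not pass (-1.43 (SE 0.66, adjusted p 0.11)). Wfdc12, a gene of the whey acidic protein family, fell by 3.87, or by 4.84 without shG0s2 replicate 3.

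The listed mitosis genes rose in both hairpin groups without exception. All 28 members of the mitosis and cytokinesis list rose in the joint contrast (background 30.0%), and all 28 moved alike, with a median log2 fold change of 1.97 jointly, 2.18 in shG0s2 and 1.75 in shRgs16, against medians of 0.0054 and 0.021 for all genes. Ccnb2, the gene of cyclin B2, had 1.63, 1.23, 1.46 and 1.37 CPM in shLacZ, 9.88, 7.83, 10.02 and 10.7 in shG0s2 and 7.07, 7.49, 5.21 and 7.04 in shRgs16. Ube2c, which encodes the ubiquitin-conjugating enzyme of the anaphase-promoting complex, had 1.35, 1.51, 2.12 and 1.84, 13.02, 9.18, 10.6 and 11.97 and 8.28, 10.002, 7.56 and 7.598. In both genes every hairpin sample stood well above the controls, and the joint log2 fold changes were 2.49 (SE 0.15, adjusted p 6.4e-09) and 2.5002 (SE 0.15, adjusted p 7.9e-09). The ratio over the mitosis genes had a median of 1.31, and 17 of 28 rose more in shG0s2 by the direct test while 0 rose more in shRgs16.

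DNA replication genes rose as well, with a larger median ratio between the hairpins. Of 28 members 25 rose and 2 fell jointly, 21 moved alike upward and 1 downward, and the median was 1.34 in shG0s2 against 0.55 in shRgs16. The median ratio was 2.19, and 22 members had the larger change in shG0s2 and 0 in shRgs16. Lig1 (ENSMUSG00000056394, chr7:13277283-13311433, plus strand), the DNA ligase that joins Okazaki fragments, had 5.26, 4.295, 4.16 and 4.85 CPM in shLacZ, 34.2, 32.2, 26.7 and 31.5 in shG0s2 and 11.8, 13.9, 8.77 and 10.98 in shRgs16. The 3 groups did not overlap, with shRgs16 between the others, and the hairpin groups differed by 1.45 (SE 0.12, adjusted p 3.2e-07). Mcm5, a subunit of the replicative helicase, rose by 2.18 in shG0s2 and 1.32 in shRgs16, with a difference of 0.86 (SE 0.11, adjusted p 1.5e-05).

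Promoters of these genes are shown because the mitosis and replication genes moved together, and their promoters are known for short motifs read by cell cycle regulators. The windows are the 120 bases before the RefSeq start site (GRCm38.p6, 5′ to 3′ on the gene's strand), with capitals only for the motifs named for each gene. In Ccnb2 (chr9:70421555-70421674, minus strand) the capitals mark CCAAT, the box bound by NF-Y. In Ube2c (chr2:164769809-164769928, plus strand) they mark CCAAT on the other strand and the cell cycle homology region TTTGAA, also on the other strand. In Mcm6 (chr1:128359706-128359825, minus strand), a helicase gene chosen for its motif after the sequences were seen, they mark the E2F motif TTTGGCGC. CCAAT on the other strand also occurs in the Mcm6 window and is left in small letters.
Ccnb2: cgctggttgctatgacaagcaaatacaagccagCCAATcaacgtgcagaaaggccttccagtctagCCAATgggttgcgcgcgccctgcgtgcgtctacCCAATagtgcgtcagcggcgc
Ube2c: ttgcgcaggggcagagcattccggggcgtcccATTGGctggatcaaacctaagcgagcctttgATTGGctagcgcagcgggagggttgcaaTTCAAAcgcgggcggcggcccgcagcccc
Mcm6: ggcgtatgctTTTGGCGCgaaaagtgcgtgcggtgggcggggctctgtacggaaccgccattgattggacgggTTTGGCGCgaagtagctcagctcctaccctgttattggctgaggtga
Motifs were searched on both strands of the 250 bases before the start, which were at hand for 11513 of the genes tested. CCAAT was in 83.3% of the 24 mitosis genes with a window, 58.3% of the 24 replication genes and 40.4% of all those tested. TTTGAA or TTTAAA was in 54.2%, 20.8% and 21.7%. TTTGGCGC or TTTCCCGC was in 0%, 20.8% and 2.66%. The antioxidant element core TGACNNNGC was in 7 of the 28 antioxidant list genes with a window and in 13.8% of all, and the STAT motif TTCNNNGAA in 7.69% of 13 male-biased genes, 0% of 14 Mup genes and 17.6% of 17 female-biased genes against 7.45%. Over all genes moved alike the CCAAT share was 40.7% for higher and 41.8% for lower genes. These are matches of letters, not binding sites.

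Genes of the G1 phase and of p53 rose in part. Of 21 G1 cyclins, kinases, inhibitors and E2Fs 16 rose and 1 fell jointly, 9 moved alike, and the median ratio was 1.77. Ccnd1, the gene of cyclin D1, had 21.5, 20.8, 19.9 and 21.5 CPM in shLacZ, 122, 119, 148 and 165 in shG0s2 and 50.2, 53.9, 40.8 and 45.1 in shRgs16. Again shRgs16 lay between the others with no overlap, and the difference was 1.55 (SE 0.10, adjusted p 1.3e-07). Of 21 p53 targets 13 rose and 1 fell, with 15 higher and 2 lower in shG0s2 than in shRgs16 (background 21.0% and 20.5%). Against shLacZ 16 rose and 1 fell in shG0s2, 9 rose and 4 fell in shRgs16, and 2 moved in opposite directions. Psrc1, a spindle protein gene, rose by 3.45 (SE 0.26, adjusted p 5.2e-08) and Zmat3, which encodes an RNA-binding protein, by 0.88 (SE 0.070, adjusted p 7.4e-08), with ratios of 1.58 and 2.27.

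Oncofetal liver genes rose in both groups. Of 18 members 16 rose and 1 fell jointly, 14 moved alike upward, and the medians were 1.97 in shG0s2 and 1.098 in shRgs16. Pkm, the pyruvate kinase gene of foetal and dividing tissue, had 42.6, 40.7, 45.7 and 44.9 CPM in shLacZ, 137, 131, 157 and 141 in shG0s2 and 94.6, 105, 80.2 and 97.2 in shRgs16. Hk2, the hexokinase that adult hepatocytes scarcely use, rose from 6.16 ± 1.06 to 21.9 ± 3.15 and 10.9 ± 1.13 CPM (SD, n = 4 each). Both rose more in shG0s2, with differences of 0.59 and 1.0005. Of the 4 genes listed as repressors of alpha-fetoprotein, Trp53 rose by 0.69 (SE 0.074, adjusted p 1.2e-06), and Zhx2 fell by 0.42 (SE 0.089, adjusted p 7.8e-04); against shLacZ it was at -0.67 (SE 0.11, adjusted p 8.7e-05) in shRgs16 and -0.17 (SE 0.10, adjusted p 0.17) in shG0s2. Zhx2 was -0.028 with library size alone, and its difference between the hairpin groups was 0.51 (SE 0.10, adjusted p 0.0012).

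**Figure D4:**
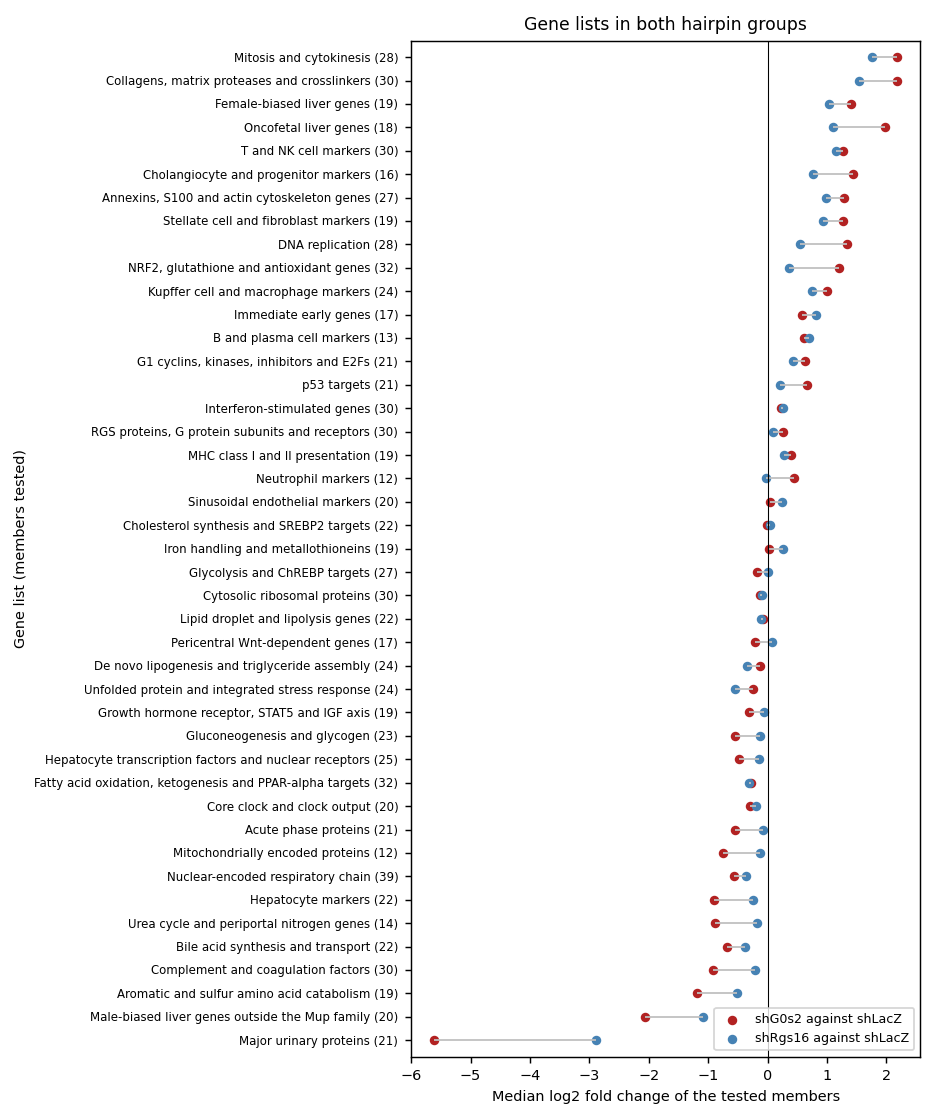
Median log2 fold change against shLacZ (horizontal axis) of the tested members of each gene list (vertical axis, number tested in brackets) in shG0s2 and shRgs16, for lists of 10 or more members. Mitosis genes lie at the top and major urinary proteins at the bottom, and the gap between the points is wide for DNA replication, NRF2, complement and male-biased genes and narrow for T cell and interferon genes.

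Most matrix genes rose in both groups, and 11 of 19 stellate cell markers were higher in shG0s2 than in shRgs16 by the direct test (background 21.0%). Of 30 collagens, matrix proteases and crosslinkers 26 rose and 2 fell jointly, 26 moved alike upward, and 17 had the larger change in shG0s2 against 0 in shRgs16. Nid1, the gene of the basement membrane protein nidogen, had 31.3, 24.4, 29.1 and 25.9 CPM in shLacZ, 155, 136, 144 and 165 in shG0s2 and 87.4, 100.4, 63.9 and 70.01 in shRgs16. Mmp2, a gelatinase gene, rose by 2.46 (SE 0.17, adjusted p 7.9e-08) with a ratio of 1.65. The 19 stellate cell and fibroblast markers held 16 that rose and 1 that fell jointly. Of these markers 12 moved alike upward and 1 downward, 18 rose and 1 fell in shG0s2, 12 rose and 3 fell in shRgs16, and 2 moved in opposite directions. Their summed TPM was between 247 and 312 in shLacZ, between 774 and 947 in shG0s2 and between 439.5 and 563 in shRgs16. Pdgfrb, a growth factor receptor gene of stellate cells, had 6.37, 6.32, 6.85 and 5.41, 32.9, 22.9, 26.4 and 32.6 and 19.6, 18.7, 13.8 and 15.2 CPM in that order, while Des, the gene of desmin, rose by 1.13 in shG0s2 and 0.94 in shRgs16 (0.19 (SE 0.10, adjusted p 0.16) for the difference). The Des difference was 0.39 (adjusted p 0.014) with library size alone. In whole liver, more cells of a type and more RNA per cell cannot be told apart, nor can fewer cells and less RNA per cell. The part of cell composition in the matrix result was not tested.

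Cholangiocyte and progenitor markers followed the same order. Of 16 tested members 11 rose and 0 fell, with a median ratio of 2.29 and 7 larger in shG0s2. Summed TPM over the 18 listed markers was between 339 and 455 in shLacZ, between 1086 and 1316 in shG0s2 and between 429.9 and 702 in shRgs16, the last overlapping the controls. Itga6, an integrin gene, rose by 1.34 (SE 0.15, adjusted p 1.5e-06) and Krt8, a keratin gene that hepatocytes also transcribe, by 1.12 (SE 0.15, adjusted p 4.9e-05).

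Most macrophage and T cell markers rose in both groups, with medians of 0.998 and 1.27 in shG0s2 and 0.75 and 1.16 in shRgs16. Among 24 markers of Kupffer cells and other macrophages, 23 rose and 0 fell jointly, 21 moved alike, and 5 had the larger change in shG0s2 by the direct test and 0 in shRgs16. C1qa, a complement gene of resident macrophages, had 81.5, 79.7, 78.3 and 76.7 CPM in shLacZ, 131, 132, 135 and 138 in shG0s2 and 125, 133, 124 and 138 in shRgs16. The hairpin groups overlapped one another and neither overlapped the controls, and their difference was 0.048 (SE 0.051, adjusted p 0.48). Tyrobp, an adaptor gene of myeloid receptors, rose by 0.88 and 0.77 (0.12 (SE 0.059, adjusted p 0.13) for the difference). Both differences passed with library size alone, at 0.25 (adjusted p 0.0031) for C1qa and 0.32 (adjusted p 0.0012) for Tyrobp. Summed TPM of the macrophage markers was between 953 and 1091, between 2822 and 3001 and between 2033 and 2454 in shLacZ, shG0s2 and shRgs16.

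Among T and NK cell markers 26 of 30 rose and 1 fell, and 25 moved alike upward. By the direct test 2 of the genes moved alike had the larger change in shG0s2 and 1 in shRgs16. Over all 30 markers, that test called 1 higher and 4 lower in shG0s2 than in shRgs16 (background 21.0% and 20.5%). Pdcd1, the gene of the inhibitory receptor PD-1, had 0.465, 0.708, 1.02 and 0.988 CPM in shLacZ, 4.42, 3.18, 5.27 and 4.26 in shG0s2 and 2.89, 2.95, 2.43 and 2.43 in shRgs16. Cd4 was the member that fell, by 1.22 (SE 0.13, adjusted p 1.2e-06), with a larger fall in shG0s2 (-0.75 (SE 0.16, adjusted p 0.0018)). Summed TPM of these markers was between 43.5 and 112, between 243 and 269 and between 203 and 265 in the 3 groups in the same order. Of 13 B and plasma cell markers 5 rose (background 30.0%), among them Cd22, a B cell receptor inhibitor gene, by 1.22 (SE 0.15, adjusted p 4.9e-06) and Cd37, a tetraspanin gene, by 0.78 (SE 0.11, adjusted p 1.9e-05). Of 12 neutrophil markers 1 was called, Csf3r, the receptor gene of granulocyte colony-stimulating factor, at 0.77 (SE 0.10, adjusted p 5.5e-06), while Retnlg was at 0.55 (SE 0.28, adjusted p 0.11), or at 0.80 (adjusted p 0.035) without shLacZ replicate 1. With library size alone 4 neutrophil markers rose. The 19 antigen presentation genes held 9 that rose and 2 that fell (18 and 0 with library size alone), and all 9 moved alike had the larger change in shG0s2, such as H2-Aa, an MHC class II gene (1.45), and H2-DMb1, which helps load peptides onto class II (1.35). Of 30 interferon-stimulated genes 13 rose and 4 fell (25 and 0 with library size alone), with Oas2, a sensor of double-stranded RNA, at 0.46 (SE 0.088, adjusted p 3.6e-04) and Ifi27 at -0.46 (SE 0.083, adjusted p 2.2e-04), the latter -0.065 and not called with library size alone.

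Most sinusoidal endothelial markers did not pass, and red cell genes moved in both directions. Of 20 endothelial markers 7 rose and 1 fell, against 30.0% and 29.6% of all genes tested. With library size alone 17 rose and 0 fell, and 12 rose without shRgs16 replicate 4. By the direct test 9 were lower in shG0s2 than in shRgs16 against 1 higher (background 20.5% and 21.0%). Mrc1, a scavenger receptor gene that macrophages also use, rose by 0.44 (SE 0.079, adjusted p 2.2e-04), and Ehd3, an endocytic protein gene, fell by 0.53 (SE 0.089, adjusted p 1.4e-04) but was not called with library size alone (-0.14). Of 9 red cell genes 2 rose and 3 fell jointly (6 and 3 with library size alone), with a median of 0.47, and 3 moved alike, all downward. Their summed TPM was between 1219 and 1794 in shLacZ, between 2578 and 3255 in shG0s2 and between 1295 and 3445 in shRgs16. Alas2, the haem synthesis gene of red cell precursors, had 127, 140.04, 156 and 149 CPM in shLacZ, 23.03, 17.8, 29.1 and 23.6 in shG0s2 and 53.998, 44.3, 44.3 and 43.7 in shRgs16. It fell by 2.11 (SE 0.10, adjusted p 6.4e-09), and Car1, a carbonic anhydrase gene of red cells, by 1.51 (SE 0.23, adjusted p 1.0e-04). The other member that fell was Klf1, an erythroid transcription factor gene, and Slc4a1, a red cell membrane protein gene, was among those that rose. Klf1 and Slc4a1 were named after their values were seen. Of 16 pancreas genes 2 passed the filter on low counts. Cela1, an elastase gene, was at 0.75 (SE 0.10, adjusted p 2.7e-05) in shRgs16 and -0.12 (SE 0.11, adjusted p 0.35) in shG0s2, and the summed TPM of the 16 was between 59.3 and 63.6 in shRgs16 against between 24.4 and 43.2 in shLacZ, with 7 members at 0 in all samples.

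Male-biased genes fell, and female-biased genes moved in both directions with more that rose. Of 20 male-biased genes outside the Mup family 0 rose and 18 fell jointly (background 29.6%), 14 moved alike downward, and the median was -2.07 in shG0s2 against -1.08 in shRgs16. The direct test gave 10 with the larger fall in shG0s2 and 0 in shRgs16. Cyp2d9, a male-predominant cytochrome P450 gene with close paralogs, had 2159.6, 2263, 2175 and 2216 CPM in shLacZ, 1036, 839, 1016 and 908 in shG0s2 and 987, 901, 1031 and 898 in shRgs16. The hairpin groups overlapped, with a difference of -0.0070 (SE 0.082, adjusted p 0.95), or 0.19 (adjusted p 0.028) with library size alone. Cyp2u1, another P450 gene, fell by 1.79 and 2.05 on the log2 scale in shG0s2 and shRgs16. Of 19 female-biased genes 12 rose and 1 fell jointly, while 5 moved alike upward and 1 downward. In shG0s2 11 rose and 4 fell, in shRgs16 10 and 1, and 2 moved in opposite directions. Slc22a27, a transporter gene of female liver with near paralogs, had 1.16, 2.41, 2.74 and 2.54, 17.1, 21.9, 14.5 and 16.5 and 18.95, 18.8, 19.2 and 22.4 CPM and rose by 3.07 (SE 0.18, adjusted p 1.2e-08). Abcd2, a peroxisomal fatty acid transporter gene, rose by 1.19 (SE 0.11, adjusted p 4.6e-07), more in shG0s2 (ratio 2.38).

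All 21 Mup genes tested fell and all 21 moved alike. Their median was -5.62 in shG0s2 and -2.88 in shRgs16, with a median ratio of 2.22, and 17 fell more in shG0s2 and 1 in shRgs16. The gene that fell more in shRgs16 was Mup20, which encodes the male pheromone darcin, with 22739, 23585, 20621 and 22991 CPM in shLacZ, 5909.97, 7777, 7933 and 7458 in shG0s2 and 3801, 3141, 4362 and 3241 in shRgs16. Its ratio was 0.62 and its difference 0.999 (SE 0.12, adjusted p 1.3e-05). Mup21 fell by 5.68 (SE 0.28, adjusted p 1.1e-07) with a ratio of 1.28. Near-identical Mup copies share reads, so values of single copies are uncertain. Of 19 genes of the growth hormone receptor, STAT5 and insulin-like growth factor axis 4 rose and 6 fell (8 and 3 with library size alone), and the median of -0.23 became 0.16 with library size alone. The background was 30.0% higher and 29.6% lower. Ghr, the receptor itself, had 513, 521, 493 and 537 CPM in shLacZ, 252, 243, 255 and 245 in shG0s2 and 275, 228, 305 and 237 in shRgs16. It fell by 1.02 (SE 0.067, adjusted p 1.4e-08) jointly, the hairpin groups overlapped, and their difference was -0.072 (SE 0.080, adjusted p 0.51). Igfbp4, a binding protein gene of the same axis, fell more in shG0s2 (ratio 2.43).

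Hepatocyte genes were lower in shG0s2 and less so in shRgs16. Of 22 hepatocyte markers 0 rose and 16 fell jointly (5 and 10 with library size alone), and 9 moved alike. Of all 22, 16 were lower in shG0s2 than in shRgs16 against 1 higher (background 20.5% and 21.0%). The list median was -0.90 in shG0s2 and -0.24 in shRgs16. Apoa2, an apolipoprotein gene of high-density lipoprotein, had 2898, 2976, 2883 and 2791 CPM in shLacZ, 1236, 1099.6, 1307 and 1293 in shG0s2 and 1848, 1626, 1886 and 1793 in shRgs16. Apob (ENSMUSG00000020609, chr12:7977648-8016835, plus strand), which encodes the structural protein of very-low-density lipoprotein, went against the list, with 6839.5, 6328, 5104 and 6781, 4636, 4353, 4990.1 and 4093 and 2179.9, 1741, 1869 and 1943 CPM. It fell more in shRgs16, with a ratio of 0.28 and a difference of 1.22 (SE 0.11, adjusted p 7.1e-07). Scaled by library size alone, Apob was at 0.031 (adjusted p 0.76) in shG0s2 and -1.39 (adjusted p 1.8e-08) in shRgs16. In summed TPM, which is not scaled by TMM, hepatocyte markers were not lower in either hairpin group.

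Other hepatocyte functions showed the same order between the groups. Of 14 urea cycle and periportal nitrogen genes 11 fell jointly (2 rose and 7 fell with library size alone), and 13 were lower in shG0s2 than in shRgs16 (background 20.5%), while 3 moved alike. Against shLacZ all 14 fell in shG0s2, but in shRgs16 only 3 fell and 2 rose, and 2 moved in opposite directions. Otc, the ornithine transcarbamylase gene, had 387, 429, 415 and 476 CPM in shLacZ, 203, 192, 238 and 204 in shG0s2 and 269, 279, 297 and 262 in shRgs16. Of 30 complement and coagulation genes 27 fell and 1 rose (16 and 5 with library size alone), and 26 were lower in shG0s2 than in shRgs16. C8g, a terminal complement gene, fell by 1.51 and 0.82 in log2 terms in shG0s2 and shRgs16, and Mbl1, a mannose-binding lectin gene, by 1.27 and 0.72. Of 19 genes of aromatic and sulfur amino acid breakdown 18 fell, 10 moved alike and 8 fell more in shG0s2. Cdo1, the cysteine dioxygenase gene, had 968, 849.8, 918 and 900.1, 385, 329, 362 and 344 and 501, 440.1, 528 and 485 CPM, and Gstz1, a tyrosine breakdown gene, fell by 0.70 (SE 0.049, adjusted p 2.4e-08). Of 17 pericentral genes 4 rose and 7 fell (6 and 2 with library size alone, where the median of -0.14 became 0.25). Cyp2e1, the ethanol-oxidising P450 gene, fell from 5456 ± 421 CPM to 1485 ± 314 and 3242 ± 521 (SD, n = 4 each), while Slc13a3, a dicarboxylate transporter gene, rose by 1.06 (SE 0.11, adjusted p 5.6e-07).

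Transcription factors of hepatocytes fell or did not pass, and acute phase genes moved in both directions. Of 25 hepatocyte transcription factors and nuclear receptors 13 fell and 0 rose (5 and 5 with library size alone). The median was -0.32, or 0.079 under that scaling. Rxra, the partner of many nuclear receptors, fell by 0.54 and 0.66 on the log2 scale, and Ppara, the fatty acid sensing receptor, by 0.64 and 0.56, each with a difference that did not pass (0.11 and -0.081, adjusted p 0.18 and 0.35). Scaled by library size alone, Rxra was at -0.045 (adjusted p 0.51) in shG0s2, and its hairpin difference of 0.31 passed (adjusted p 4.5e-04). The Ppara difference was then 0.12 (adjusted p 0.083). Of 21 acute phase genes 5 rose and 9 fell (7 and 4 with library size alone, where the median of -0.39 became 0.012). Saa4, a constitutive serum amyloid gene, fell by 1.84 (SE 0.15, adjusted p 1.1e-06), while Il1rn, the gene of the interleukin 1 receptor antagonist, rose by 1.35 (SE 0.13, adjusted p 1.7e-06).

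**Figure D5:**
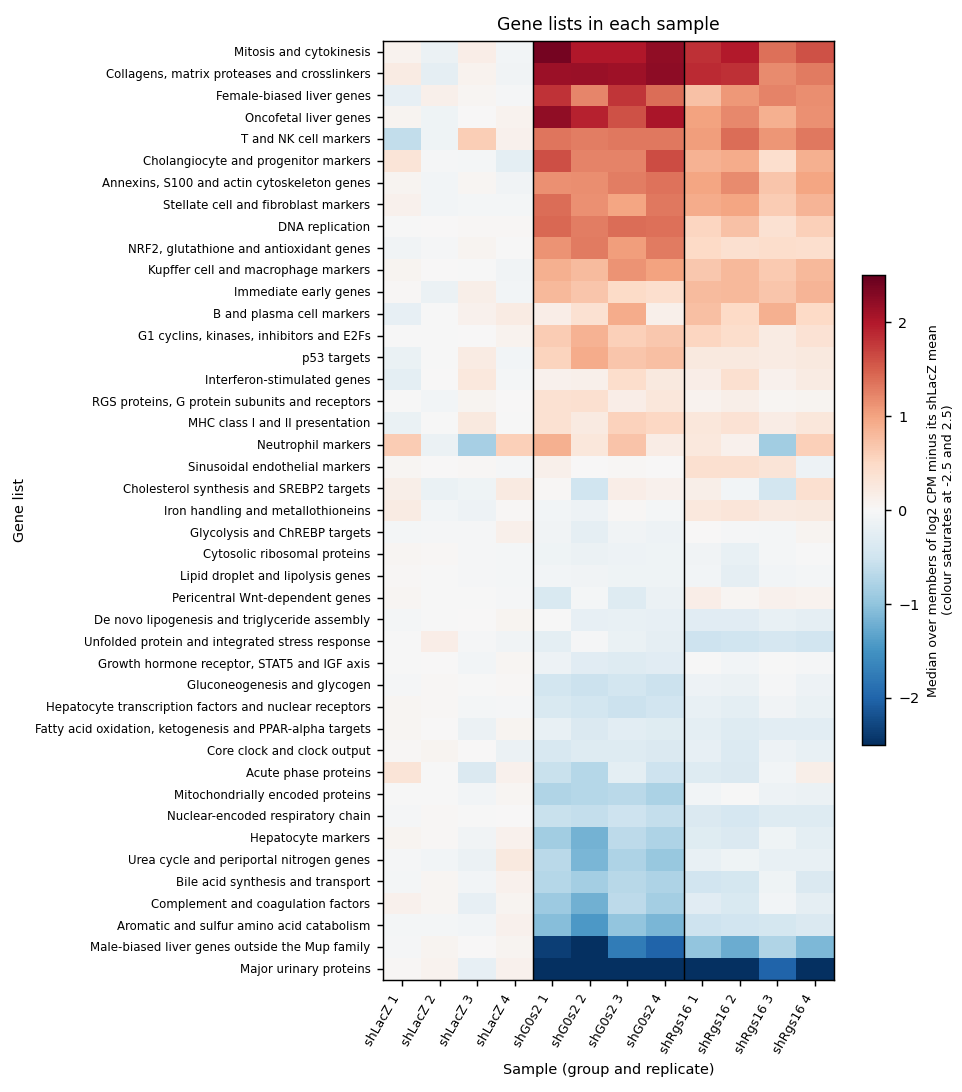
Gene lists (vertical axis, 10 or more members tested) in each of the 12 samples (horizontal axis), as the median over members of log2 CPM minus the mean of the 4 shLacZ samples (colour, saturating at -2.5 and 2.5). The 4 samples within a hairpin group resemble one another for most lists, shG0s2 columns are deeper in colour than shRgs16 columns for hepatocyte, replication and NRF2 lists, and T cell, neutrophil and acute phase lists vary among the controls.

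Respiratory chain genes fell together in both groups. All 39 nuclear-encoded genes fell jointly and 36 moved alike, with medians of -0.57 in shG0s2 and -0.36 in shRgs16, whereas under library size scaling 3 rose and 13 fell (median -0.065). The direct test found 26 with the larger fall in shG0s2 and 2 in shRgs16. Ndufa10 (ENSMUSG00000026260, chr1:92439010-92473860, minus strand), a complex I subunit gene, was the sharpest of the latter, with 161, 164, 172 and 167 CPM in shLacZ, 113, 109, 116 and 109.7 in shG0s2 and 55.7, 50.1, 50.7 and 50.9 in shRgs16. Its log2 fold change was -0.57 (SE 0.051, adjusted p 1.7e-07) in shG0s2 and -1.68 (SE 0.052, adjusted p 2.5e-11) in shRgs16, a ratio of 0.34. Under library size scaling Ndufa10 was at -0.070 (adjusted p 0.31) in shG0s2 and -1.38 (adjusted p 9.5e-10) in shRgs16, so only the shRgs16 fall was called. Ndufb9, another complex I gene, fell by 0.87 and 0.69. Of 12 genes of the mitochondrial genome 10 fell (1 rose and 2 fell with library size alone) and 3 moved alike, with mt-Nd2 at -0.94 in shG0s2 and -0.22 in shRgs16, and this list's median went from -0.40 to -0.0052 with library size alone.

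Lipid genes moved in both directions, and all 3 list medians changed sign with library size alone. Of 32 fatty acid oxidation, ketogenesis and PPAR-alpha targets 4 rose and 21 fell (15 and 4 with library size alone, where the median of -0.33 became 0.067). Ucp2, an uncoupling protein gene that macrophages also use, rose from 100.5 ± 10.6 CPM to 245 ± 6.195 and 208 ± 19.2 (SD, n = 4 each). Acads, a short-chain acyl-CoA dehydrogenase gene, fell by 0.49 (SE 0.047, adjusted p 3.7e-07) but was not called with library size alone (-0.10). Of 24 lipogenesis and triglyceride assembly genes 4 rose and 13 fell (11 and 5 with library size alone, where the median of -0.21 became 0.19). Agpat2, an acyltransferase of phosphatidic acid synthesis, fell by 0.80 (SE 0.058, adjusted p 3.0e-08) and Dgat2, which makes triglyceride, by 0.68 (SE 0.067, adjusted p 5.1e-07), with ratios of 0.81 and 2.17. Of 22 lipid droplet and lipolysis genes, a list that holds G0s2, 6 rose and 10 fell (12 and 5 with library size alone, where the median of -0.13 became 0.27). Bscl2, the gene of seipin, fell by 0.55 (SE 0.045, adjusted p 1.0e-07) and Ces1f, a carboxylesterase gene with close paralogs, by 1.01 (SE 0.094, adjusted p 5.2e-07).

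Bile acid genes fell in the main and cholesterol genes mostly did not pass. Of 22 genes of bile acid synthesis and transport 4 rose and 15 fell (8 and 10 with library size alone), with a median ratio of 2.42. Slc10a1, the sodium-dependent bile acid uptake carrier, had 315, 348, 279.6 and 341 CPM in shLacZ, 83.1, 42.7, 106 and 81.03 in shG0s2 and 79.6, 64.8, 81.9 and 73.6 in shRgs16. The hairpin groups overlapped and differed by 0.061 (SE 0.22, adjusted p 0.85). Cyp27a1, a sterol hydroxylase gene of bile acid synthesis, fell more in shG0s2 (ratio 2.93). Abcc4 (ENSMUSG00000032849, chr14:118482692-118706219, minus strand), which encodes an exporter of organic anions to the blood side, had 5.07, 5.66, 4.91 and 5.79, 65.8, 55.6, 57.9 and 53.1 and 9.96, 11.02, 11.5 and 9.27 CPM in shLacZ, shG0s2 and shRgs16. It rose far more in shG0s2, with a ratio of 3.58 and a difference of 2.48 (SE 0.088, adjusted p 1.2e-10). Of 22 cholesterol synthesis genes 1 rose and 5 fell (13 and 1 with library size alone, where the median of -0.0087 became 0.39, and 4 rose without shG0s2 replicate 2 or shRgs16 replicate 3), with Ebp, a sterol isomerase gene, at -0.48 (SE 0.072, adjusted p 3.7e-05) but not called with library size alone (-0.079).

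Glucose and clock genes moved in both directions. Of 27 glycolysis and ChREBP targets, which include G0s2 and Rgs16, 8 rose and 9 fell (19 and 2 with library size alone, where the median of -0.069 became 0.33). Over all genes tested 30.0% rose and 29.6% fell, so the shares of this list were near the background. Among 23 genes of glucose production and glycogen, 3 rose and 14 fell (11 and 4 with library size alone, where the median of -0.28 became 0.11). Ppp1r3b, which directs phosphatase to glycogen, fell by 1.03 (SE 0.091, adjusted p 4.2e-07). Gcgr, the glucagon receptor, fell by 0.67 (SE 0.049, adjusted p 3.5e-08) with a larger fall in shRgs16 (ratio 0.69). Gcgr was at -0.044 (adjusted p 0.46) in shG0s2 and -0.49 (adjusted p 1.4e-06) in shRgs16 with library size alone. Of 20 clock genes 2 rose and 11 fell (6 and 3 with library size alone, where the median of -0.35 became 0.048), and the kinase gene Csnk1e stood at 0.71 (SE 0.089, adjusted p 5.8e-06) and Per3 at -0.50 (SE 0.069, adjusted p 1.5e-05), the latter not called with library size alone (-0.11). Of 30 RGS proteins, G protein subunits and receptors 14 rose and 6 fell (22 and 3 with library size alone), Rgs16 among the latter, and Gnb1, a beta subunit gene, rose by 0.96 (SE 0.053, adjusted p 3.9e-09).

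Antioxidant genes rose more in shG0s2 and stress genes split. Of 32 genes of antioxidant defence, many of them driven by the transcription factor NRF2, 24 rose and 4 fell (30 and 1 with library size alone), the medians were 1.204 in shG0s2 and 0.36 in shRgs16, and 15 of the genes moved alike had the larger change in shG0s2 against 1 in shRgs16. In shG0s2 25 rose and 5 fell, in shRgs16 20 and 6, and 3 moved in opposite directions. Gstm1, a glutathione transferase gene with close paralogs, had 384, 432, 508 and 372 CPM in shLacZ, 3386, 2729.6, 2424 and 2598 in shG0s2 and 2053, 2083, 2094 and 1669.7 in shRgs16, a joint rise of 2.47 (SE 0.12, adjusted p 1.6e-09). Of 24 genes of the unfolded protein and integrated stress responses 4 rose and 11 fell (9 and 6 with library size alone, where the median of -0.22 became 0.18). Atf3, a stress-induced transcription factor, rose by 1.89 (SE 0.18, adjusted p 4.8e-07), while Edem1, which targets misfolded glycoproteins for degradation, fell by 0.65 (SE 0.059, adjusted p 2.4e-07). Of 17 immediate early genes 14 rose and 0 fell with a median ratio of 0.96. Jun had 21.6, 21.3, 18.5 and 19.02, 71.8, 92.5, 64.8 and 72.7 and 51.6, 42.8, 33.9 and 49.6 CPM in shLacZ, shG0s2 and shRgs16, and Klf6 rose by 1.498 (SE 0.10, adjusted p 2.5e-08). Both, chosen for their small p, rose more in shG0s2. The list as a whole held 4 genes lower and 3 higher in shG0s2 than in shRgs16, near the background of 20.5% and 21.0%.

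Of 27 annexin, S100 and actin cytoskeleton genes 21 rose and 1 fell. Tmsb10, which binds actin monomers, rose by 2.25 in shG0s2 and 1.199 in shRgs16, and S100a11, a calcium-binding protein gene, by 2.58 and 1.07. Iron genes were among the few lists where the larger change was in shRgs16, with a median ratio of 0.65 over 6 genes moved alike, 3 larger in shRgs16 and 1 in shG0s2. Slc40a1, the iron exporter ferroportin, rose by 0.38 in shG0s2 and 0.57 in shRgs16, and Tfr2, a sensor of circulating iron, fell by 0.86 (SE 0.093, adjusted p 1.8e-06). Of 30 cytosolic ribosomal protein genes 0 rose and 14 fell (26 and 1 with library size alone). The median was -0.10, or 0.30 under that scaling. Rps2 fell by 0.54 (SE 0.049, adjusted p 2.2e-07), while Rpl19 was at -0.34 (SE 0.044, adjusted p 9.3e-06) and at 0.059 with library size alone.

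Some genes moved by nearly the same amount under both hairpins. These were named as the strongest with hairpin effects within 0.1 of each other on the log2 scale, so the closeness itself is no result. Ugt2b1, a glucuronosyltransferase gene, had 352, 350.1, 361 and 363 CPM in shLacZ, 116, 81.9, 121 and 105 in shG0s2 and 109.5, 80.8, 141 and 94.6 in shRgs16. Extl1, an exostosin-like gene, fell by 2.65 (SE 0.18, adjusted p 2.0e-08) and Acpp, an acid phosphatase gene, by 2.03 (SE 0.22, adjusted p 1.2e-06). Atp6v0d2, a subunit gene of the proton pump of lysosomes and osteoclasts, had 1.95, 1.75, 2.17 and 2.92 CPM in shLacZ, 12.8, 12.1, 17.5 and 17.3 in shG0s2 and 16.2, 20.4, 9.71 and 15.9 in shRgs16. Sybu, which encodes a microtubule-linked transport protein, rose by 3.15 (SE 0.30, adjusted p 3.7e-07), Svep1, an extracellular matrix protein gene, by 2.78 (SE 0.33, adjusted p 8.3e-06), and Nipal1, a magnesium transporter family gene, by 2.48 (SE 0.48, adjusted p 0.0013), or by 3.43 without shLacZ replicate 4. In each of these 8 genes with Slc10a1 all hairpin samples lay on one side of all controls. They were picked for large changes, so that is a description. Among all 16018 genes tested, 2523 had all 8 hairpin samples above the controls and 2439 had all 8 below.

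At the ends of the ratio, where genes were picked for their ratio and the values are descriptive, a gene moved by both hairpins moved mostly by one. Elovl7, a fatty acid elongase gene, had 0.326, 0.236, 0.265 and 0.282 CPM in shLacZ, 14.5, 15.8, 11.998 and 14.6 in shG0s2 and 0.785, 0.291, 0.392 and 0.517 in shRgs16, a ratio of 6.78. Its shRgs16 samples overlapped the controls, and its call there was marginal (adjusted p 0.046). Parm1, a mucin-like gene, was also marginal in shRgs16 (adjusted p 0.05) with a ratio of 4.97, and Lama3, a laminin chain gene, fell with a ratio of 4.49. At the other end Angpt2, an angiopoietin gene, had 1.35, 1.37, 1.41 and 1.37, 2.08, 2.31, 1.94 and 1.82 and 4.85, 5.02, 5.36 and 4.14 CPM in shLacZ, shG0s2 and shRgs16, a ratio of 0.31. Tmc5, a transmembrane channel-like gene, rose by 1.66 in shG0s2 and 5.18 in shRgs16, Cib3, a calcium- and integrin-binding protein gene, by 0.90 and 2.702, and Corin, a natriuretic peptide convertase gene, by 1.05 and 3.11. The shG0s2 call of Tmc5 was marginal (adjusted p 0.040), on counts of 6, 8, 7 and 8 against 1, 3, 1 and 2 in shLacZ. That of Cib3 was near the threshold too (adjusted p 0.029), and its shG0s2 samples overlapped the controls.

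The hairpins moved 284 genes in opposite directions, of which the joint contrast called 40. Of the 284, 141 were higher in shG0s2 and lower in shRgs16 and 143 the reverse. Cyp39a1, an oxysterol hydroxylase gene, had 33.3, 33.6, 23.3 and 28.99 CPM in shLacZ, 20.7, 13.4, 11.8 and 13.2 in shG0s2 and 48.6, 63.4, 77.4 and 66.6 in shRgs16. The groups fell into 3 separate ranges, its joint log2 fold change was 0.046 (SE 0.17, adjusted p 0.83) and the hairpin difference was -2.11 (SE 0.20, adjusted p 1.0e-05). Enho, the gene of the secreted peptide adropin, went from 10.3 ± 3.07 CPM down to 5.13 ± 2.06 in shG0s2 and up to 21.3 ± 2.92 in shRgs16 (SD, n = 4 each). Ly6f and the pancreatic elastase gene Cela2a were likewise lower in shG0s2 and higher in shRgs16, at -1.75 and 3.18 and at -1.72 and 1.36. In the reverse direction Phospho1, a phosphatase gene of mineralisation, had 6.84, 7.599, 6.01 and 12.6, 17.6, 37.4, 19.9 and 22.1 and 3.71, 3.201, 1.76 and 1.43 CPM. Cyp21a1, the steroid 21-hydroxylase gene, was at 1.58 in shG0s2 and -2.25 in shRgs16, Cox7a1, a cytochrome oxidase subunit gene of muscle and brown fat, at 1.56 and -2.103, and Wfdc16 at 1.33 and -2.22. They were chosen for opposite calls, and the joint adjusted p of these 8 genes lay between 0.088 (Ly6f) and 0.94 (Enho).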

How the data were processed

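Liver total RNA was measured in 12 samples, grouped by their titles. The authors deposited 1 table for each knockdown with shLacZ, holding estimated counts and TPM per gene and sample, per the file headers. The tools listed, per the submitters' processing notes, are DESeq2, SAMtools 1.9, GATK 3.8, Bowtie2 2.2.9 and fastp 0.19.5. The build, the counting program and the use of strand were not given in the sources used here, so overlapping and antisense genes may share reads. The tables were joined on gene identifier (0 differences over 8 shLacZ columns). All 55536 identifiers matched GENCODE (GRCm38), which gave the coordinates.

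Estimated counts were rounded. Genes were filtered with filterByExpr (16018 kept), scaled with TMM and tested two-sided in 1 model of 12 samples with edgeR 4.0.16 (robust quasi-likelihood F test, R 4.3.3), Benjamini-Hochberg adjusted over all genes tested, at a false discovery rate of 0.05. Every adjusted p is edgeR's unless another program is named beside it. The joint contrast is the mean of both hairpin groups minus shLacZ. Within groups every pair of libraries differed beyond counting noise (chi-square over its degrees of freedom 11.25 to 43.39).

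The members, the 46 gene lists and the rules were chosen with earlier results of these data known. The text names the 2 targets; the 8 largest joint increases and decreases moved alike (official symbol, no Mup, mean of at least 1 CPM, no overlap with shLacZ); the 2 members of each list with the smallest joint p; the 5 largest and 5 smallest ratios among genes moved alike by at least 0.5 (log2) that differ between hairpins; 4 genes in each direction with opposite calls; and 4 in each direction with effects within 0.1 of each other. Alternatives were RLE scaling, library size alone, TMM without Mup genes, DESeq2 1.42.0, limma-voom (limma 3.58.1), other filters, a fold threshold, separate models, a replicate block and each sample left out. Promoters are from RefSeq (GRCm38.p6). For 2 genes that these rules name, results are not reported here.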

Additional observations from a re-analysis of the deposited data

Results flagged for a closer look

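Of the genes that the hairpins moved in opposite directions, 8 are named. They were chosen for those opposite calls, so their differences between shG0s2 and shRgs16 in the same samples are descriptions and no test. Ly6f differed by -4.94, the pancreatic elastase gene Cela2a by -3.07, Cyp39a1 by -2.11 and Enho by -2.05, all lower in shG0s2. Cyp21a1 differed by 3.83, Cox7a1 by 3.67, Wfdc16 by 3.55 and Phospho1 by 3.24, all higher in shG0s2 (log2 scale, n = 4 per group, edgeR).

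Single samples stood far from the other 3 of their group in 16 of 381 groups of 4 samples, where chance gives about 1 in 20. In shRgs16, Hsd3b5 reached 52.5 CPM in replicate 3 against 14.5 to 17.1 in the others, and Cib3 was lowest there at 14.8 CPM. Replicate 2 of shRgs16 was highest for Apela (0.800 CPM) and Lrtm2 (0.837 CPM) and lowest for Ppp1r3b (109 CPM). Replicate 1 of shRgs16 was highest for Alas2 (54.0 CPM) and Ndufa10 (55.7 CPM). Replicate 4 of shRgs16 was lowest for Gstm1 (1670.0 CPM) and highest for Slc22a27 (22.4 CPM). In shG0s2, Moxd1 was highest in replicate 1 (1.04 CPM), Mup21 highest in replicate 3 (6.00 CPM) and Rxra lowest in replicate 2 (349.7 CPM). In shLacZ, Psrc1 (0.884 CPM) and Cib3 (4.95 CPM) were highest in replicate 3, Ces4a was highest in replicate 2 (17.98 CPM) and Ehd3 lowest in replicate 4 (65.1 CPM).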

How the results depend on the processing

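Scaling by library size alone changed the counts most, giving 9972 higher and 1232 lower genes in the joint contrast, 7042 higher and 569 lower genes moved alike, 6054 higher and 1568 lower genes in shG0s2 against shRgs16, and a median ratio of 1.359. It raised Rpl19 to 0.059, against -0.34 before, and Acads, Ebp, Ehd3, G0s2, Ifi27, Per3 and Zhx2 lost their joint calls. The cause was not tested. Requiring a fold of 2 left 1763 higher and 554 lower genes in the joint contrast and 984 and 277 moved alike, fewer by construction. Leaving out each sample in turn gave 4298 to 4810 higher and 4382 to 4914 lower genes jointly, 2742 to 3152 higher and 2426 to 2917 lower genes moved alike, 2869 to 3490 and 2855 to 3379 genes between the hairpin groups, and a median ratio of 1.199 to 1.295. RLE scaling, TMM without Mup genes, DESeq2, limma-voom, both other filters and separate models for each hairpin kept these counts within 1.5 times and the ratio within its spread; separate models allow no joint test. Igf2 lost its call with limma-voom (adjusted p 0.05). Counts of 2 or fewer genes against the direction of a list, as in the p53, female-biased, matrix, complement and clock lists, moved by 1 gene when single samples were left out. Deviations of same-numbered samples from their group means correlated at -0.074 to 0.136, against -0.131 to 0.113 for differently numbered ones. No pairing by number was seen, and whether the numbers mark a shared batch was not tested. With a replicate block the joint contrast gave 4751 higher and 4686 lower genes, genes moved alike numbered 3072 and 2671, the hairpin groups differed in 3292 and 3242 genes, and the median ratio was 1.258. Depth limits genes of a few counts, such as Lrtm2 and Apela in shLacZ.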
